A study of Homo sapiens with 6 samples.

Results

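NFE2L2, its partner KEAP1 and 8 genes that NRF2 is known to switch on were followed in RNA sequencing of NCI-H1299, an established line of human lung cancer cells with the label lung adenocarcinoma. The members were found by gene symbol in the authors' deposited table, and 9 of the 10 were analysed, among 25287 genes. SRXN1, which encodes sulfiredoxin, was not analysed here. The study has 2 groups of 3 libraries from cells with no other stated treatment. One group carried a control short hairpin RNA (shControl) and the other a hairpin against ALDH18A1 (shALDH18A1). The series' design text also names its arms puro and sh-ALDH18A1. ALDH18A1 encodes P5CS, a mitochondrial enzyme of proline synthesis that the series title presents as an RNA-binding protein. The labels do not give the hairpin sequences, how many hairpins or clones were used, the time after delivery, or whether the 3 replicates of a group are separate cultures. The p-values may therefore measure technical spread only.

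NRF2, the product of NFE2L2, is a transcription factor of the oxidant defence. In unstressed cells KEAP1 binds NRF2 and hands it to a CUL3 ubiquitin ligase, which marks it for destruction. Oxidants and electrophiles modify KEAP1, NRF2 then builds up, pairs with small MAF proteins and binds antioxidant response elements in its target genes. These targets make glutathione, reduce thioredoxin, break down heme and reduce quinones and carbonyls. The pathway is known in lung cancer because tumours often carry mutations that free NRF2 from KEAP1.

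Each gene has a mean normalized count, a log2 fold change and its standard error (SE) in the authors' deposited table, and values and depths of single libraries were not analysed here. Its headers leave the numerator of that fold change unnamed. The targeted gene does not settle this. ALDH18A1 lay at -0.08 on the log2 scale (SE 0.07, 95% interval -0.22 to 0.07, DESeq2 adjusted p = 0.471) per the authors' deposited table. A negative value therefore means lower RNA in the numerator group, whichever of the 2 that is. At a mean normalized count of 2661, the deposited comparison does not show a loss of ALDH18A1 RNA in either group. Whether the hairpin lowered P5CS was not tested, so the values below describe a difference between the 2 groups only. A gene is called where the authors' adjusted p is under 0.05, which 42.4% of all genes of the authors' deposited table reached, 20.9% on the positive and 21.5% on the negative side. Of the lineage markers of lung adenocarcinoma, SFTPB had a mean normalized count of 4.49 per the authors' deposited table, and NKX2-1, NAPSA and SFTPC were not analysed here. The keratin genes KRT8 (18965) and KRT18 (14244) and the mesenchymal gene VIM (24591) had high mean normalized counts per the authors' deposited table, while EPCAM (41.4), CDH1 (24.2) and KRT19 (5.77) were low. Among 5 listed markers of other cell types, mean normalized counts ran from 2.49 for LUM to 116 for the endothelial marker PECAM1 per the authors' deposited table. PECAM1 (log2 fold change 2.53, SE 0.28) and the fibroblast marker DCN (2.54, SE 0.55) were positive per the authors' deposited table, and PTPRC, CDH5 and LUM did not pass. CD3E, CD68 and PDGFRA were not analysed here. The markers' part in the results on NRF2 genes was not tested.

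The antioxidant response element was sought in the promoters of the members, because most of the members lay on the same side of the comparison. RefSeq promoters (GRCh38.p14, 250 bases before to 50 after a start) were at hand for 8 of the 9 listed members, and HMOX1 was not used here. The letters searched were TGACNNNGC on both strands, which 13.3% of all 35116 RefSeq promoters hold. A match was found in 3 of these 8 members, KEAP1, TXNRD1 and GCLM. Counted by gene, since a gene can have more than 1 promoter, 18.7% of the 14109 genes of the authors' deposited table with a RefSeq promoter hold the letters. Each of these 3 members also holds the longer form TGACNNNGCA, found in 3.18% of all promoters and 4.17% of these genes. The matches before a start are given in 29 bases each, read so that the core is in capitals as TGACNNNGC, with the GRCh38.p14 position and strand of the window.
KEAP1, chr19:10502784-10502812, plus strand: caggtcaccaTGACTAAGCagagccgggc
GCLM, chr1:93909446-93909474, plus strand: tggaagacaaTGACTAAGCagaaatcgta
TXNRD1, second start, chr12:104286920-104286948, minus strand: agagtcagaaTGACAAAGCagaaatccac
KEAP1, chr19:10502807-10502835, minus strand: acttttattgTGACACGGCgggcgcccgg
TXNRD1, first start, chr12:104215670-104215698, plus strand: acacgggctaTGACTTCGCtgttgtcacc
The first core of KEAP1 and that of GCLM have the same 9 letters, which read as TGACTAAGC on the strand opposite the gene. They lie 31 to 23 bases before a start of KEAP1 and 34 to 26 bases before that of GCLM. KEAP1 has 2 listed promoters. Both of its cores lie in the one at the lower coordinates, and the other has no match. TXNRD1 has 1 match before each of its 2 listed starts, 99 and 102 bases upstream, and a further match that spans its first start. The promoters of NFE2L2, GCLC, NQO1, OSGIN1 and AKR1C1 have no match in this window. Sites further from a start were not searched, so a missing match does not show that a gene lacks the element. OSGIN1 holds the AP-1 letters TGAGTCA, read on the minus strand, 97 bases before its start, as do 4.95% of all promoters. A match is a description of letters, and binding was not measured. The 250 bases before the first start of TXNRD1, the member with the largest negative value, are shown whole (GRCh38.p14 chr12:104215529-104215778, plus strand), with the core in capitals.
TXNRD1: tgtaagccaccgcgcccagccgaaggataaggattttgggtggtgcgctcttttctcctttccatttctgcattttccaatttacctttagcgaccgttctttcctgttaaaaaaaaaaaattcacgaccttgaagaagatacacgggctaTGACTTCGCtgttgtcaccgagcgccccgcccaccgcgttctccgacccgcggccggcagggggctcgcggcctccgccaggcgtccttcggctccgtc

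All 9 listed members passed the threshold, 7 with negative and 2 with positive values, per the authors' deposited table. The negative members were the pathway's own regulators NFE2L2 and KEAP1 and 5 of the 7 listed targets, TXNRD1, HMOX1, GCLM, OSGIN1 and GCLC. The positive ones were the reductase genes NQO1 and AKR1C1. The median log2 fold change of the 9 was -1.47, beside 0.03 over all genes of the authors' deposited table. Abundant genes pass more often: among the 5706 genes with a mean normalized count of at least 1000, 83.3% passed per the authors' deposited table, 33.2% positive and 50.0% negative. Of the 8 members at that level, 7 were negative and 5 passed with a log2 fold change of -1 or lower. The share of genes that passed with such a value was 10.4% among the abundant genes and 7.06% among all genes, per the authors' deposited table. The members were chosen with earlier results of these data known, so these counts are a description only.

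**Figure D1:**
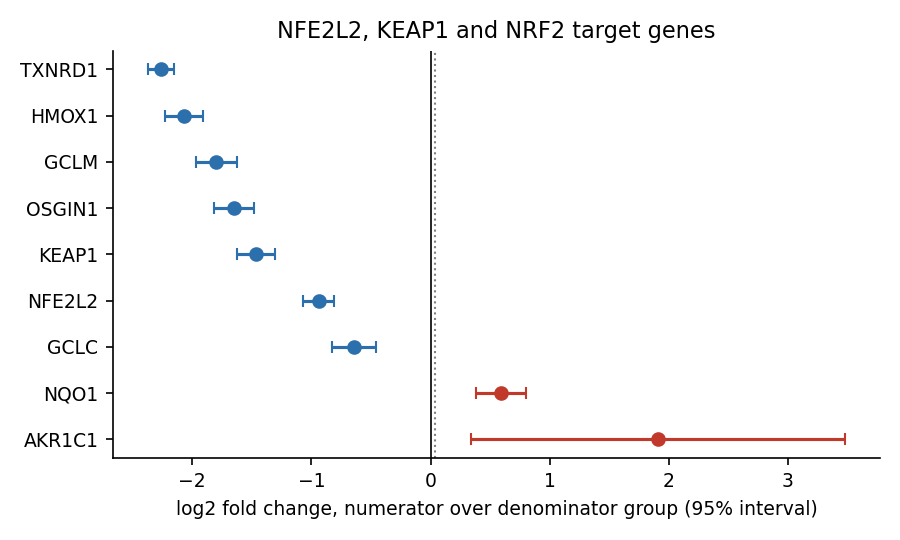
Log2 fold change of the 9 listed members (points) with 95% intervals (bars), blue for the negative and red for the positive side, with the median of all genes as a dotted line. The values run from -2.26 for TXNRD1 to 1.91 for AKR1C1, whose interval is the widest.

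NFE2L2 (ENSG00000116044, chromosome 2, 177227595 to 177392697, minus strand, GRCh38) had a mean normalized count of 3798 per the authors' deposited table. Its value on the log2 scale was -0.94 (SE 0.07, 95% interval -1.07 to -0.81, DESeq2 adjusted p = 2.44e-44) per the authors' deposited table, a 1.92-fold lower level in the numerator group. With equal group sizes assumed, the mean and the fold change of the authors' deposited table imply normalized counts of 2603 in the numerator and 4993 in the denominator group. Its annotated 5′ end overlaps the start of AGPS on the other strand only from position 177392644 to 177392697. That stretch lies away from the RefSeq promoters of NFE2L2 used above, whose upstream bases lie between 177264132 and 177264977. AGPS lay at -1.06 (SE 0.07) per the authors' deposited table. The sources used here do not say whether counting used strand, so reads in that overlap cannot be told apart. KEAP1 (ENSG00000079999, chromosome 19, 10486120 to 10503741, minus strand) had a mean normalized count of 3808 per the authors' deposited table. It lay further on the negative side at -1.47 (SE 0.08, 95% interval -1.62 to -1.31, DESeq2 adjusted p = 2.62e-73), or 2.76-fold lower in the numerator group, per the authors' deposited table. The gene of the inhibitor thus differed more than the gene of the factor that it holds back. The log2 fold change of NFE2L2 exceeded that of KEAP1 by 0.53 (95% interval 0.32 to 0.73, computed from the authors' deposited table with errors taken as independent).

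Other genes that act on NRF2 were mostly negative as well. Of 17 listed genes of this list, 13 were negative, with KEAP1 and NFE2L2 among them. Another 3 were positive, and DCAF11 did not pass, per the authors' deposited table. The negative share of the list was 76.5%, beside 50.0% of abundant genes and 21.5% of all genes of the authors' deposited table. This list and the other role lists were chosen with earlier results of these data known. Their shares are therefore a description only. The median of the list was -0.83. SQSTM1, the autophagy receptor p62 that binds KEAP1 and is itself an NRF2 target, with a mean count of 48971, lay at -2.24 (SE 0.06, DESeq2 adjusted p = 5.15e-301) per the authors' deposited table. BACH1, a repressor that competes with NRF2 for its DNA sites, lay at -0.96 (SE 0.07), and FBXW11, a receptor of another ubiquitin ligase that marks NRF2, at -0.95 (SE 0.06), per the authors' deposited table. The small MAF partners MAFF (-1.40, SE 0.11), MAFG (-1.07, SE 0.09) and MAFK (-0.56, SE 0.07) were all negative per the authors' deposited table. SYVN1, for a further ubiquitin ligase that marks NRF2, lay opposite at 0.40 (SE 0.07, DESeq2 adjusted p = 7.68e-08) per the authors' deposited table, and the other 2 positive genes were NFE2L1 and NFE2L3. CUL3, the scaffold of the ligase that KEAP1 serves, was close to 0 by comparison at -0.28 (SE 0.07, DESeq2 adjusted p = 0.000247) per the authors' deposited table. The difference between CUL3 and KEAP1 was 1.18 (95% interval 0.97 to 1.39, from the authors' deposited table with errors taken as independent). NFE2 was not analysed here.

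TXNRD1 (ENSG00000198431, chromosome 12, 104215779 to 104350305, plus strand) encodes the cytosolic thioredoxin reductase, a selenoprotein that keeps thioredoxin reduced with NADPH. At a mean count of 19866 it had the largest negative value of the 9 members, -2.26 (SE 0.06, 95% interval -2.37 to -2.15), per the authors' deposited table. The authors' deposited table lists its DESeq2 adjusted p as 0, with a Wald statistic of -40.6. This is a 4.80-fold lower level in the numerator group, with implied counts of 6847 and 32885 from the authors' deposited table. Among the 5706 abundant genes its value ranked 23rd from the lowest, and SQSTM1 ranked 25th, per the authors' deposited table. Its substrate gene TXN, for thioredoxin, lay at -0.54 (SE 0.09) and PRDX1, for a thioredoxin-dependent peroxidase, at -0.56 (SE 0.07), per the authors' deposited table. The reductase gene therefore exceeded its substrate gene on the negative side by 1.72 log2 units (95% interval 1.52 to 1.92, from the authors' deposited table with errors taken as independent). PRDX6 was not analysed here. For SRXN1, whose product repairs oxidised peroxiredoxins, no value is given. The gene ENSG00000270299 overlaps it on the same strand of chromosome 20 and lay at -0.91 (SE 0.27, DESeq2 adjusted p = 0.00238) at a mean count of 83.1 per the authors' deposited table.

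HMOX1 (ENSG00000100292, chromosome 22, 35380361 to 35394214, plus strand) encodes heme oxygenase 1, the inducible enzyme that opens heme to biliverdin, iron and carbon monoxide. At a mean count of 3169 it lay at -2.07 (SE 0.08, 95% interval -2.23 to -1.91, DESeq2 adjusted p = 4.12e-139) per the authors' deposited table. The level was 4.195-fold lower in the numerator group, with implied counts of 1220 and 5119 from the authors' deposited table. HMOX1 ranked 39th from the lowest among the 5706 abundant genes of the authors' deposited table. The next enzyme, biliverdin reductase, has 2 genes that differed from each other. BLVRA lay at -0.95 (SE 0.09) and BLVRB at -0.07 (SE 0.07, DESeq2 adjusted p = 0.52) per the authors' deposited table. The ferritin genes that store the freed iron, FTH1 (-1.14, SE 0.09) and FTL (-0.85, SE 0.08), were negative per the authors' deposited table. The heme transporter gene SLC48A1 (0.37, SE 0.07) was the exception with a positive value, per the authors' deposited table. In all, 5 of 7 listed heme and iron genes were negative and 1 positive per the authors' deposited table, around a median of -0.85. The negative share was 71.4%, beside 50.0% of abundant genes and 21.5% of all genes of the authors' deposited table. ABCB6 was not analysed here. Ferritin genes have many processed pseudogenes that can share their reads.

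GCLM and GCLC encode the modifier and the catalytic subunit of glutamate-cysteine ligase, which makes the first, rate-limiting step of glutathione synthesis. GCLM (ENSG00000023909, chromosome 1, 93885205 to 93909456, minus strand) lay at -1.80 (SE 0.09, 95% interval -1.97 to -1.62, DESeq2 adjusted p = 2.63e-88) at a mean count of 1574 per the authors' deposited table. GCLC (ENSG00000001084, chromosome 6, 53497341 to 53616970, minus strand) lay at -0.64 (SE 0.09, 95% interval -0.83 to -0.46, DESeq2 adjusted p = 4.25e-11) at a mean count of 1410 per the authors' deposited table. The 2 subunit genes thus stood on the same side with unequal size, 3.48-fold lower for GCLM and 1.56-fold lower for GCLC in the numerator group of the authors' deposited table. Their difference was 1.15 log2 units (95% interval 0.90 to 1.41, from the authors' deposited table with errors taken as independent). Per kilobase of annotated exon, the implied ratio of GCLM to GCLC was 1.85 in the denominator and 0.831 in the numerator group, from the authors' deposited table. Per kilobase of the principal transcript, GCLM was also above GCLC in the denominator group (503 and 451) and below it in the numerator group (145 and 289). The size of the ratio depends on the lengths used, while its 2.22-fold change does not.

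The wider glutathione list was divided. Of 8 listed genes, 5 were negative and 3 positive per the authors' deposited table, around a median of -0.55. Among abundant genes 50.0% were negative and 33.2% positive, and among all genes 21.5% and 20.9%, per the authors' deposited table. The list's negative share of 62.5% was thus not far from that of abundant genes. GSS, for the second step of synthesis, lay at -0.77 (SE 0.07) and GSR, for glutathione reductase, at -0.45 (SE 0.08), per the authors' deposited table. The transferase gene GSTP1 was negative at -0.74 (SE 0.09) per the authors' deposited table. Opposite them stood the microsomal transferase gene MGST1 at 2.42 (SE 0.08, DESeq2 adjusted p = 4.29e-191) and GSTA4 at 1.06 (SE 0.18) per the authors' deposited table. MGST1 was thus at least as far from 0 on the positive side as TXNRD1 on the negative. SLC7A11, the cystine transporter gene that NRF2 and ATF4 both drive, lay at 0.63 (SE 0.23, DESeq2 adjusted p = 0.014) at a mean count of 143 per the authors' deposited table. GPX2, GSTM3 and GLRX were not analysed here.

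OSGIN1 (ENSG00000140961, chromosome 16, 83948282 to 83966332, plus strand) encodes an oxidative stress induced growth inhibitor. It lay at -1.65 (SE 0.08, 95% interval -1.82 to -1.48, DESeq2 adjusted p = 2.91e-82) at a mean count of 3505 per the authors' deposited table. The level was 3.14-fold lower in the numerator group, with implied counts of 1694 and 5317 from the authors' deposited table. Of 5 listed targets outside the other roles, TRIM16L (-1.34, SE 0.10) and PIR (-0.82, SE 0.17) were negative with OSGIN1 per the authors' deposited table. TRIM16 was positive at 1.84 (SE 0.26), and NR0B1 did not pass at 0.24 (SE 0.23, DESeq2 adjusted p = 0.462), per the authors' deposited table. TRIM16 and TRIM16L are paralogs whose reads may be shared, so their opposite values are uncertain.

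NQO1 (ENSG00000181019, chromosome 16, 69706996 to 69726951, minus strand) encodes a quinone reductase and is widely used as a marker of NRF2 activity. It lay on the positive side at 0.59 (SE 0.11, 95% interval 0.38 to 0.81, DESeq2 adjusted p = 2.17e-07) at a mean count of 1544 per the authors' deposited table. The level was 1.51-fold higher in the numerator group, with implied counts of 1857 and 1231 from the authors' deposited table. The log2 fold changes of NQO1 and GCLC differed by 1.24 (95% interval 0.96 to 1.52, from the authors' deposited table with errors taken as independent). The divergent transcript NQO1-DT, at a mean count of 34.7, did not pass at 0.15 (SE 0.42, DESeq2 adjusted p = 0.838) per the authors' deposited table.

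AKR1C1 (ENSG00000187134, chromosome 10, 4963253 to 4983283, plus strand) encodes an aldo-keto reductase of steroids and carbonyls. Its mean count was 11.3, with implied counts of 17.8 in the numerator and 4.75 in the denominator group from the authors' deposited table. Its value on the log2 scale was 1.91 (SE 0.80, 95% interval 0.34 to 3.48, DESeq2 adjusted p = 0.0416) per the authors' deposited table. The interval spans a 1.26-fold to an 11.1-fold higher level, so the size of the difference is poorly fixed at this depth. Of the 51-base windows of its principal transcript in GENCODE release 29, 28.0% are also in transcripts of AKR1C2, so reads can be shared. AKR1C2, at a mean count of 43.5, lay at 1.67 (SE 0.41, DESeq2 adjusted p = 0.000175) per the authors' deposited table. With equal total counts in both groups, reached by a shift of all fold changes, AKR1C1 lay at 1.79 and no longer passed (adjusted p = 0.0582). For the other 8 members the share of such windows found in another gene was at most 2.71%, for OSGIN1.

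Quinone and carbonyl reduction was the role whose median was not negative, at 0.14 over 11 listed genes of the authors' deposited table. Of these, 4 had positive and 3 negative calls, and 4 did not pass, per the authors' deposited table. Positive calls made up 33.2% of abundant genes and 20.9% of all genes, and negative calls 50.0% and 21.5%, per the authors' deposited table. EPHX1, for an epoxide hydrolase, lay with NQO1 at 0.84 (SE 0.15), while the aldose reductase gene AKR1B1 (-0.997, SE 0.08) and PTGR1 (-0.64, SE 0.12) lay opposite, per the authors' deposited table. AKR1B10, at a mean count of 33.0, had the largest negative value of all the NRF2 genes listed, -2.89 (SE 0.49), per the authors' deposited table. The 4 that did not pass were AKR1C3, UGDH, ALDH3A1 and CES1, with mean counts from 2.83 for ALDH3A1 to 1488 for UGDH per the authors' deposited table. CBR1 and CBR3 were not analysed here.

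**Figure D2:**
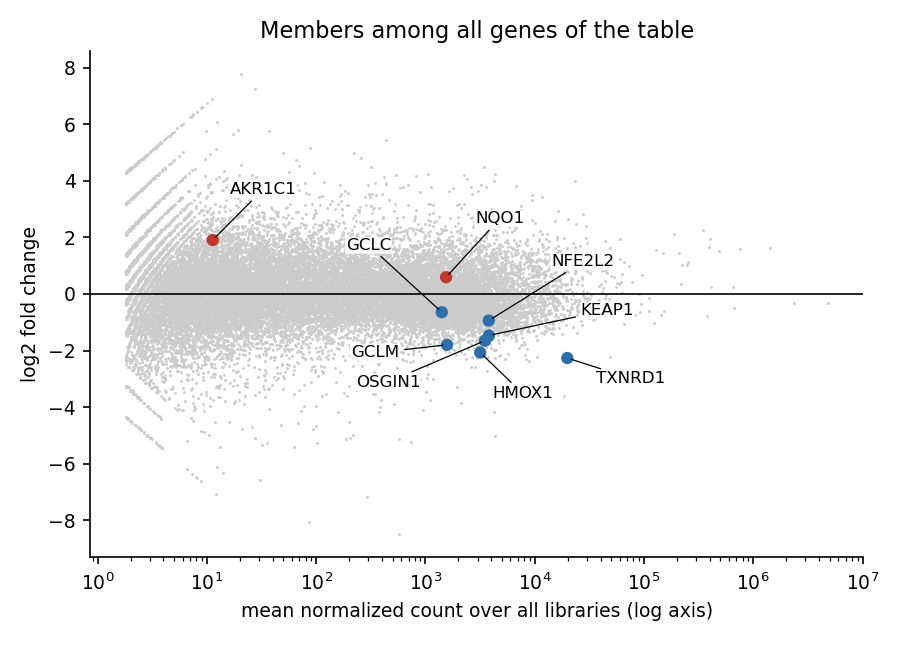
Log2 fold change against mean normalized count (log axis) for all 25287 genes (grey), with the 9 members in blue (negative) or red (positive). AKR1C1 lies among low counts, where values spread widely, and the 7 negative members lie between 1410 and 19866.

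To set genes beside each other, levels were taken per kilobase of annotated exon, while the mean counts given elsewhere show the depth behind a value. TXNRD1 was highest at a mean of 3937 normalized counts per kilobase, followed by HMOX1 (1739), OSGIN1 (1288), KEAP1 (1207) and NFE2L2 (838), computed from the authors' deposited table. NQO1 (494), GCLM (321), GCLC (221) and AKR1C1 (1.60) completed the order of levels per kilobase, from the authors' deposited table. With the length of the principal transcript in place of all exons, KEAP1 and NFE2L2 changed places, as did GCLM and GCLC. The authors' deposited table gives no error for a level, so which neighbours in this order differ cannot be said. The order of fold changes can be read with its error. Among neighbours in that order, GCLM and OSGIN1, OSGIN1 and KEAP1, and NQO1 and AKR1C1 did not differ beyond their 95% intervals, and the other 5 neighbouring pairs did. TXNRD1 and HMOX1 only just did, with a difference of 0.20 (95% interval 0.0011 to 0.39) computed from the authors' deposited table.

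**Figure D3:**
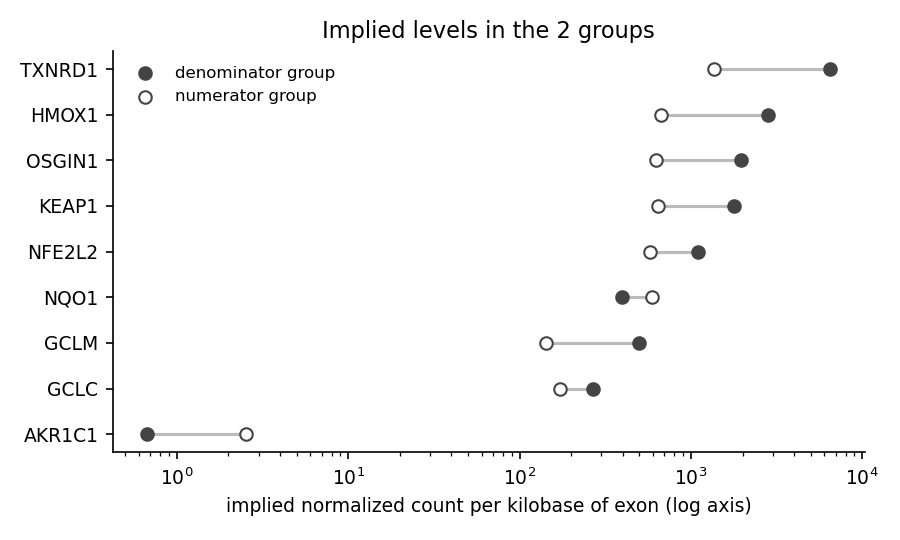
Normalized counts per kilobase of exon (log axis) implied for the numerator (open) and denominator group (filled) from the mean count and fold change, with equal group sizes assumed and no error available. HMOX1, OSGIN1, KEAP1 and NFE2L2 run from 1102 to 2809 in the denominator and from 575 to 670 in the numerator group.

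In the denominator group, the implied levels of HMOX1, OSGIN1, KEAP1 and NFE2L2 per kilobase were 2809, 1954, 1772 and 1102, from the authors' deposited table. In the numerator group they were 670, 623, 642 and 575. NQO1, lower than all 4 in the denominator group at 394, stood at 594 in the numerator group, within their range. How close these levels lie depends on the length used. Per kilobase of the principal transcript, a choice made after seeing the data, the 4 ran from 1750 to 2809 in the denominator and from 670 to 912 in the numerator group, from the authors' deposited table. NQO1 was then below all 4 in both groups, at 423 and 638.

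Relatives of the members did not all share their side. TXNRD2, for the mitochondrial thioredoxin reductase, lay at 0.68 (SE 0.09) and TXNRD3 at 0.70 (SE 0.11), both opposite TXNRD1 per the authors' deposited table. The difference between TXNRD1 and TXNRD2 was 2.95 log2 units (95% interval 2.74 to 3.15, from the authors' deposited table with errors taken as independent). NFE2L1 (0.77, SE 0.06) and NFE2L3 (1.09, SE 0.11), which encode the CNC factors NRF1 and NRF3, were likewise opposite NFE2L2 per the authors' deposited table. HMOX2, for the constitutive heme oxygenase, was negative with HMOX1 but smaller, at -1.16 (SE 0.07), per the authors' deposited table. OSGIN2 lay at -0.75 (SE 0.11) beside OSGIN1, and NQO2 at 0.32 (SE 0.09) beside NQO1, per the authors' deposited table. The difference between NQO1 and NQO2 was within its error (-0.27, 95% interval -0.55 to 0.0045, from the authors' deposited table), and so was that between AKR1C1 and AKR1C2 (-0.23, 95% interval -2.001 to 1.53). AKR1C3, at a mean count of 19.2, did not pass at 0.14 (SE 0.71, DESeq2 adjusted p = 0.911) per the authors' deposited table. The list also holds AKR1A1, AKR1B1, AKR1B10, KLHL9, KLHL12, KLHL13, KLHL20 and ENC1, and some relatives, such as NFE2L1 and AKR1B1, are also counted by role. Calls were positive for 7 and negative for 7 of the 17 listed relatives, and 3 did not pass, per the authors' deposited table. The median of the 17 was -0.04. Over all genes 20.9% were positive and 21.5% negative, and over abundant genes 33.2% and 50.0%, per the authors' deposited table. AKR1C4 was not analysed here.

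**Figure D4:**
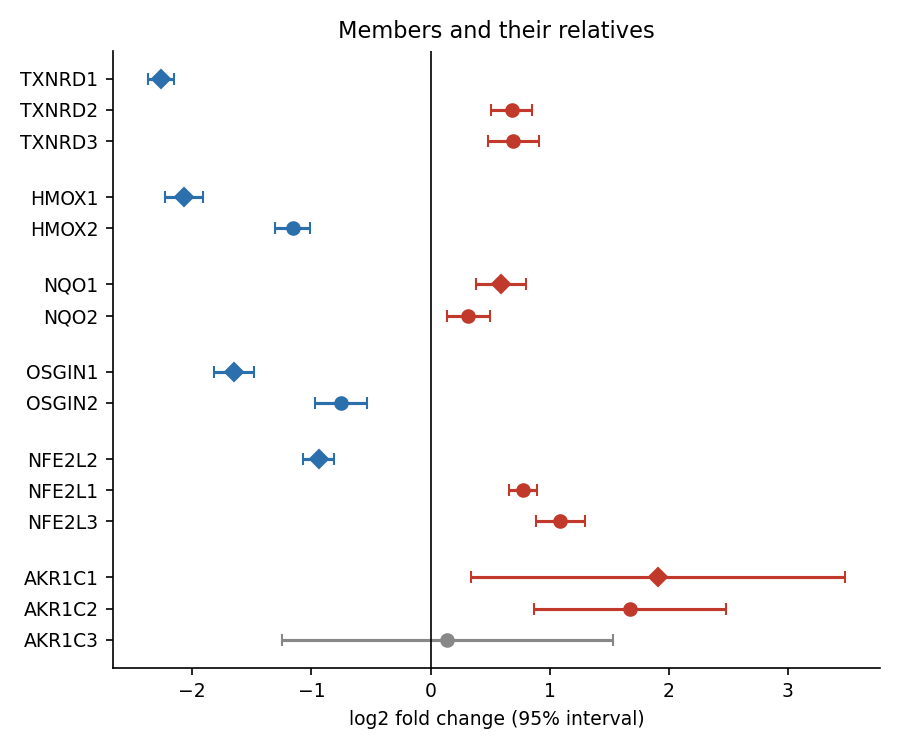
Log2 fold change with 95% intervals for some members (diamonds) and some of their relatives (circles), blue for negative, red for positive and grey for not past the threshold. TXNRD1 at -2.26 stands opposite TXNRD2 and TXNRD3 at 0.68 and 0.70, and NFE2L2 at -0.94 opposite NFE2L1 and NFE2L3 at 0.77 and 1.09.

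Genes that supply NADPH and genes of efflux pumps were divided. Among the NADPH genes, PGD (-0.80, SE 0.06), TALDO1 (-0.67, SE 0.09) and ME1 (-0.68, SE 0.12) were negative and IDH1 (0.03, SE 0.08) did not pass, per the authors' deposited table. TKT, for transketolase, lay opposite at 0.74 (SE 0.06), per the authors' deposited table. Of 6 efflux pump genes, 3 were positive, led by ABCC1 (1.21, SE 0.07) and ABCC5 (0.89, SE 0.07), and 3 negative, led by ABCC2 (-0.96, SE 0.10), per the authors' deposited table. Abundant genes were themselves divided, with 33.2% positive and 50.0% negative, beside 20.9% and 21.5% of all genes, per the authors' deposited table. Over the 8 roles, 63 of 72 genes were listed, of which 38 were negative, 17 positive and 8 did not pass per the authors' deposited table. Without the members, 31 of 54 were negative and 15 positive, with a median of -0.53 beside 0.03 over all genes and -0.19 over abundant genes of the authors' deposited table. The share of negative genes among these 54 was 57.4%, beside 50.0% among abundant genes and 21.5% among all genes of the authors' deposited table. Since the lists were chosen with earlier results of these data known, that share is a description only.

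**Figure D5:**
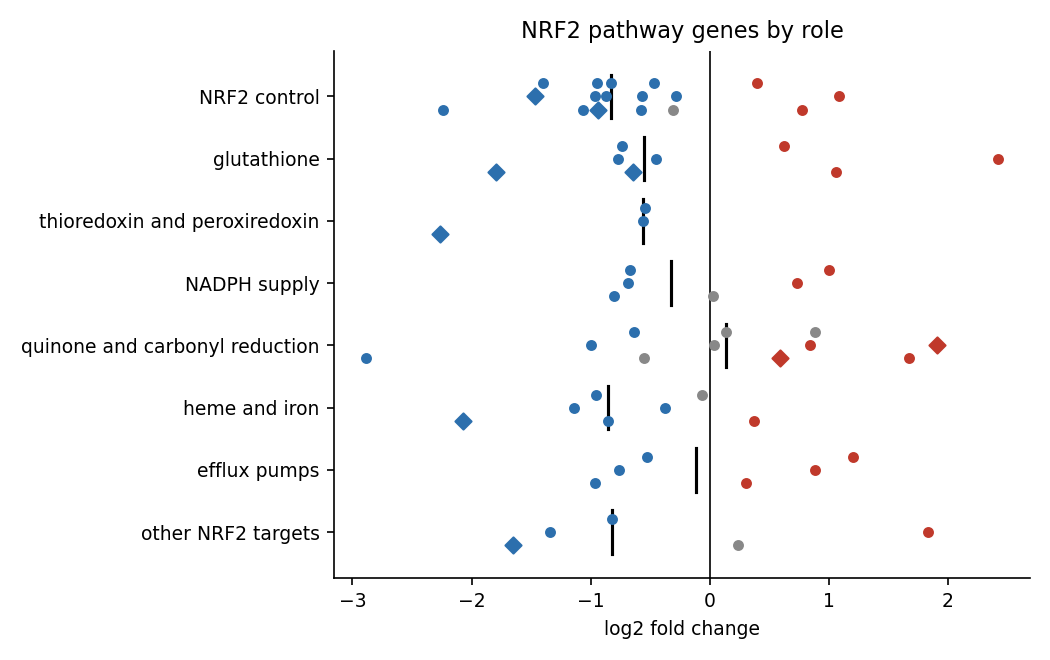
Log2 fold change of 63 NRF2 pathway genes by role, with members as diamonds, other genes as circles and the median of each role as a black bar, coloured blue for negative, red for positive and grey for not past the threshold. Medians run from -0.85 for heme and iron to 0.14 for quinone and carbonyl reduction.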

How the data were processed

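Total RNA of 6 libraries was made into TruSeq libraries, per the labels' protocols, whose text calls them RIP-seq libraries. fastp 0.23.2, STAR 2.7.10a, featureCounts, DESeq2 and the build hg38 are named in the submitters' processing notes. The deposited file holds 1 comparison. Per the file headers, its mean count is a normalized signal averaged by the authors over libraries. The fold change and SE are log2 values as DESeq2 gives them, although the authors' header states no base. The Wald score, the p-value and its adjusted form are those the authors deposited.

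The planned fit of counts per library was left out for want of values per library, and the deposited comparison was described as the design provides. The members and lists were chosen with earlier results of these data known. The deposited adjusted p was checked against a Benjamini-Hochberg adjustment over 25287 genes and differed by at most 1.39e-15. Intervals of 95% are the fold change plus or minus 1.96 SE. Group counts were implied from mean and fold change with equal group sizes. Genes outside the members were named by the 4 smallest adjusted p-values of each list, plus partners and relatives of a member. Other genes of the lists, such as the small MAF genes, SYVN1, GSR, SLC7A11 and ME1, and genes that overlap a member fall outside that rule and were named for their role after their values were seen. Coordinates and exon lengths come from GENCODE release 29 on GRCh38. Shifts of the fold changes were tried on simulated data in which most genes were unchanged. In the deposited comparison 42.4% of all genes passed, so that trial cannot show which shift is right here. Python 3.11.15, numpy 2.4.6, pandas 2.3.3, scipy 1.17.1 and matplotlib 3.10.9 were used. Alternatives were a stricter or unadjusted p, a minimum fold change, a minimum mean count and 3 shifts of the fold changes. Some genes that the naming rule takes are left out of the text.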

Additional observations from a re-analysis of the deposited data

How the results depend on the processing

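Of 63 calls of members under 7 alternatives, 58 stayed on their side of the threshold. No sign could change, because the shifts were at most 0.12 and the smallest absolute member value was 0.59, for NQO1. The other alternatives leave the fold changes as they are. The unadjusted p is looser than the main threshold, so no call could be lost there. No member lies below the minimum mean count of 10. The 7 negative members also passed at an adjusted p under 0.01 and under each of the 3 shifts. With a log2 fold change of 1 or more in either direction required, NFE2L2, GCLC and NQO1 dropped out by construction, which left 5 negative members and 1 positive. Only 1 positive member remained at an adjusted p under 0.01, with equal total counts, and without AKR1C1 (chosen after seeing the data). The members' median was -1.58 with equal total counts, a setting that moves all genes by 0.12 on the log2 scale, and -1.56 for members with a mean count of at least 100. With the minimum fold change, 4550 genes passed in place of 10718, 2765 positive and 1785 negative, and of the NRF2 pathway genes 19 in place of 55, 8 positive and 11 negative. With equal total counts ALDH18A1 also passed, at -0.19 (adjusted p = 0.0227), and the cause was not tested. It did not pass with equal total counts of nuclear genes (-0.03, adjusted p = 0.813) or with the median of all genes at 0 (-0.11, adjusted p = 0.25). No paired analysis was possible because only values of the whole comparison were used here, and for the same reason leaving out each library, a second count tool and the search for genes alike across samples were not run. Depth limits AKR1C1 (SE 0.80), beside SEs of 0.06 to 0.11 for the other members.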

Other observations

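The promoter letters were also counted over all listed genes with a RefSeq promoter, as a description with no test. Of 2644 genes with TGACNNNGC, 30.5% had negative and 24.5% positive calls per the authors' deposited table, beside 27.8% and 25.3% of 11465 genes without it. The rarer form TGACTNAGC, which KEAP1 and GCLM hold and 1.12% of all promoters do, marked 199 listed genes, of which 64 were negative and 43 positive per the authors' deposited table. It can overlap the AP-1 letters TGAGTCA. The median log2 fold change of the 199 was -0.09, beside -0.0032 for the 13910 genes without it, from the authors' deposited table. The 776 genes with the AP-1 letters had a median mean count of 126, beside 355 for those without. Of them 17.9% were positive, beside 25.5%, and 30.4% negative, beside 28.2%, per the authors' deposited table. Their median log2 fold change was -0.13, beside 0.0039, a larger negative value than that of the 199 genes. Genes with TGACNNNGC had a higher median mean count than those without it, 449 beside 316, from the authors' deposited table. The part of mean count in these shares was not tested.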
